A study of Homo sapiens with 7 samples.

Results

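The genes described here are 10 genes of pericellular proteolysis, the breakdown of the matrix around a cell: the metalloproteases MMP1, MMP3, MMP9, MMP10, MMP13 and MMP14, the urokinase gene PLAU, its receptor PLAUR, and the metalloprotease inhibitors TIMP1 and TIMP2. They were chosen by name and are 10 of 56239 genes with an assigned transcript. RNA-Seq libraries came from TE5 and KYSE140, established cell lines of esophageal squamous cell carcinoma. TE5 cells carried a non-targeting scramble shRNA (TE5 scramble) or an shRNA against TP63, SOX2 or CCAT1 (TE5 shTP63, TE5 shSOX2 and TE5 shCCAT1), and KYSE140 cells carried scramble, TP63 or SOX2 shRNA (KYSE140 scramble, KYSE140 shTP63 and KYSE140 shSOX2). TP63 and SOX2 are lineage transcription factors of squamous epithelium, and CCAT1 is a long non-coding RNA. All 7 libraries came from cells cultured in medium with serum, and the shRNAs were delivered with a lentiviral vector. Each condition of a line had 1 library, so a difference between libraries has no replicate check. The labels name 1 shRNA per target, and for TP63 and SOX2 it was the same in both lines. Silencing of the target and other effects of its shRNA therefore cannot be told apart, also where the lines take the same direction.

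Matrix metalloproteases are zinc endopeptidases made as inactive precursors. Collagenases cut fibrillar collagen, stromelysins cut a broad range of matrix proteins and can activate other precursors, gelatinases cut denatured collagen, and the membrane-type enzyme MMP14 acts at the cell surface, where it activates MMP2 and MMP13. TIMP proteins bind and block the active enzymes, and TIMP2 also takes part in the activation of MMP2 by MMP14. Urokinase, bound to its receptor, turns plasminogen into plasmin, which digests fibrin and activates several metalloproteases. In squamous carcinomas these enzymes are known from invasive margins, where tumor cells and stromal fibroblasts both produce them.

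The estimated read counts per library summed to between 68532611 (KYSE140 scramble) and 98036494 (TE5 shTP63), so for abundant genes counting error is small. Intervals below are exact (Clopper-Pearson) 95% intervals that cover counting error only, since reads are not independent molecules and culture-to-culture spread was not measured. Counts were normalized for library size and composition, and TPM, the deposited abundance of a transcript relative to all transcripts of its library, was used to set genes side by side, since it is scaled for transcript length. Normalized counts of the targeted gene against the scramble of the line had log2 fold changes of -1.95 (TE5 shTP63) and -1.94 (KYSE140 shTP63) for TP63. For SOX2 the values were -1.34 (TE5 shSOX2) and -0.38 (KYSE140 shSOX2), and for CCAT1 -1.70 in TE5 shCCAT1. SOX2 transcripts thus remained at a high level in KYSE140 shSOX2, with 22046.5 normalized counts beside 28626.8 in scramble. By the run names in the labels, the scramble library of each line was sequenced in another lane than its knockdown libraries, and in TE5 on another flow cell. Lane and silencing therefore cannot be told apart in a comparison with scramble, whereas knockdown libraries of a line shared a lane. Of 9 squamous epithelial markers, 9 had at least 10 estimated counts in every library except TE5 shSOX2, where KRT14 did not. KRT14 was scarce throughout TE5, with 29.1, 24.1, 7.2 and 23.8 normalized counts in scramble, shTP63, shSOX2 and shCCAT1. In KYSE140 it lay between 24563.1 and 157398.5. Of 8 fibroblast markers, LUM and PDGFRB stayed between 0 and 7.8 normalized counts and DCN between 2.7 and 19.4, while COL1A1 lay between 2078.5 and 8677.9 and THY1 between 1111.8 and 2586.4 in KYSE140, against at most 4.1 in TE5. PDGFRA lay between 48.2 and 130.1 in KYSE140 and was at most 22.9 in TE5. COL3A1 had 74.9, 470.4, 410.3 and 58.7 in TE5 scramble, shTP63, shSOX2 and shCCAT1, and lay between 9.1 and 48.7 in KYSE140. For COL1A2 the TE5 values were 13.5, 157.6, 36.1 and 47.6, and the KYSE140 values lay between 10.1 and 24.5. The 8 summed to 13.86 to 27.49 TPM in TE5 and 55.4 to 71.45 TPM in KYSE140. The 7 leukocyte markers, carried mostly by CD68, summed to 54.29 to 123.6 TPM in TE5 and 3.938 to 16.44 TPM in KYSE140, and PTPRC stayed between 1.1 and 19.8 normalized counts. ITGAM lay between 426.2 and 623.9 normalized counts in TE5 and between 15.5 and 18.8 in KYSE140. The 3 endothelial markers with transcripts summed to at most 9.31 TPM, the value of TE5 shTP63, of which CDH5 held 8.361 TPM.

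By the GENCODE annotation on hg19, the collagenase genes are MMP1 (chr11:102660132-102668891) and MMP13 (chr11:102813724-102826461), and the stromelysin genes are MMP3 (chr11:102706532-102714340) and MMP10 (chr11:102641233-102651359). These 4 genes lie on the minus strand of 1 cluster. The gelatinase gene MMP9 lies at chr20:44637547-44645200 and MMP14 at chr14:23305769-23318250, both on the plus strand. PLAU lies at chr10:75668935-75677254 (plus strand), PLAUR at chr19:44150247-44174699 (minus strand), TIMP1 at chrX:47441807-47446188 (plus strand) and TIMP2 at chr17:76849059-76921469 (minus strand).

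Promoter sequence was available for 5 members from RefSeq on GRCh38.p14, as 300 bases from 250 before to 50 after the gene start. MMP1, MMP3, MMP9, MMP13 and TIMP2 had no entry. The promoters of PLAUR, PLAU and MMP10 are shown because their genes had the higher or lower values described below, and because AP-1 and ETS factors are known regulators of protease genes. Capitals mark the AP-1 word TGAGTCA and the ETS core word GGAA, read on both strands (TTCC is GGAA on the other strand). In PLAUR no AP-1 word overlaps a GGAA word.
PLAUR, chr19:43670120-43670419, minus strand: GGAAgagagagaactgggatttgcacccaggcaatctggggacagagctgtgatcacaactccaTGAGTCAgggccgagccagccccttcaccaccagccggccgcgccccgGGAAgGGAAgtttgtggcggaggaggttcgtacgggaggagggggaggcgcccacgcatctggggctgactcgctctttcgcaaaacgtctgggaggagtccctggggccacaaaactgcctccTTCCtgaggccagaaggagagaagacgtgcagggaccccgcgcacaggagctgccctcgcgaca
PLAU upstream entry, chr10:73910360-73910659, plus strand: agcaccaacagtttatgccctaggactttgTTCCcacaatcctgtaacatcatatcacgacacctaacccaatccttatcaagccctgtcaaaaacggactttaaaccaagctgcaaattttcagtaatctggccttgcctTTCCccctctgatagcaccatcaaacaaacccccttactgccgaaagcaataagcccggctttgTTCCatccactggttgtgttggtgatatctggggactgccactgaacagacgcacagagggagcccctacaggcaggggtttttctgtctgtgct
PLAU downstream entry, chr10:73910882-73911181, plus strand: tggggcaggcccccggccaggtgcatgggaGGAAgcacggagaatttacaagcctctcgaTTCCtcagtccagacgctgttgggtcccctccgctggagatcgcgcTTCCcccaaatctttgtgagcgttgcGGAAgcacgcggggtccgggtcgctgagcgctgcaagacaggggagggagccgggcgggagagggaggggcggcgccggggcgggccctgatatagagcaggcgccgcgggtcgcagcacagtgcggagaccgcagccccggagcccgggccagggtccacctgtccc
MMP10, chr11:102780579-102780878, minus strand: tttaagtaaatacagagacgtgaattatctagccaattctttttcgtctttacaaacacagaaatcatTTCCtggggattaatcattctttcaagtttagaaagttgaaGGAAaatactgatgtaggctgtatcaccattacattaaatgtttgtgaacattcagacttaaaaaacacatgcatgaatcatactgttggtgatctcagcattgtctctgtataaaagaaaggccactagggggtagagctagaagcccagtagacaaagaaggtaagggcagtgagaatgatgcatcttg
The PLAUR window held 1 AP-1 word, beginning 186 bases before the start, and the windows of PLAU, MMP10, MMP14 and TIMP1 held none. Of all 35116 promoters in the table, 4.95% held the word. GGAA words numbered 4 in PLAUR, 3 and 4 in the PLAU entries, 2 in MMP10, 5 in MMP14 and 4 in TIMP1, beside a median of 3 over all promoters, 95.5% of which held at least 1. The MMP10 window was 36.3% G and C, against 64.0% in PLAUR and a median of 58.7% over all promoters.

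The scramble libraries of the lines differed widely in protease levels. In TE5 scramble, TIMP1 (232.1 TPM), MMP1 (129.7), MMP14 (115.8), PLAU (101.8), TIMP2 (79.07) and MMP13 (73.44) lay at or above the 88.9th percentile of genes with at least 10 counts. PLAUR followed at 32.53 TPM and MMP10 at 7.257 TPM, whereas MMP9 (0.4454 TPM) lay at percentile 12.9. In KYSE140 scramble the order was TIMP2 (38.61 TPM), PLAUR (15.38), TIMP1 (7.948), PLAU (6.702), MMP10 (3.714) and MMP14 (1.589), and MMP13 (0.3054), MMP9 (0.1951) and MMP1 (0.1526) lay at or below percentile 8.0. TE5 cells were thus rich in collagenases, MMP14, urokinase and TIMP1, and KYSE140 cells had mainly the urokinase receptor and TIMP2.

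The ratio of TPM in TE5 scramble over KYSE140 scramble was 850.0 for MMP1 and 241.0 for MMP13. It was 72.9 for MMP14, 29.2 for TIMP1 and 15.2 for PLAU. Between 1.95 and 2.28 lay the ratios of MMP10 (1.95), TIMP2 (2.05), PLAUR (2.12) and MMP9 (2.28), so the lines were closest in these genes. The counting intervals of these line differences in normalized counts excluded 0 on the log2 scale for 9 of the 10 genes, with MMP3 as the exception. With 1 scramble library per line, in different flow cells, the line and the library cannot be told apart.

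**Figure D1:**
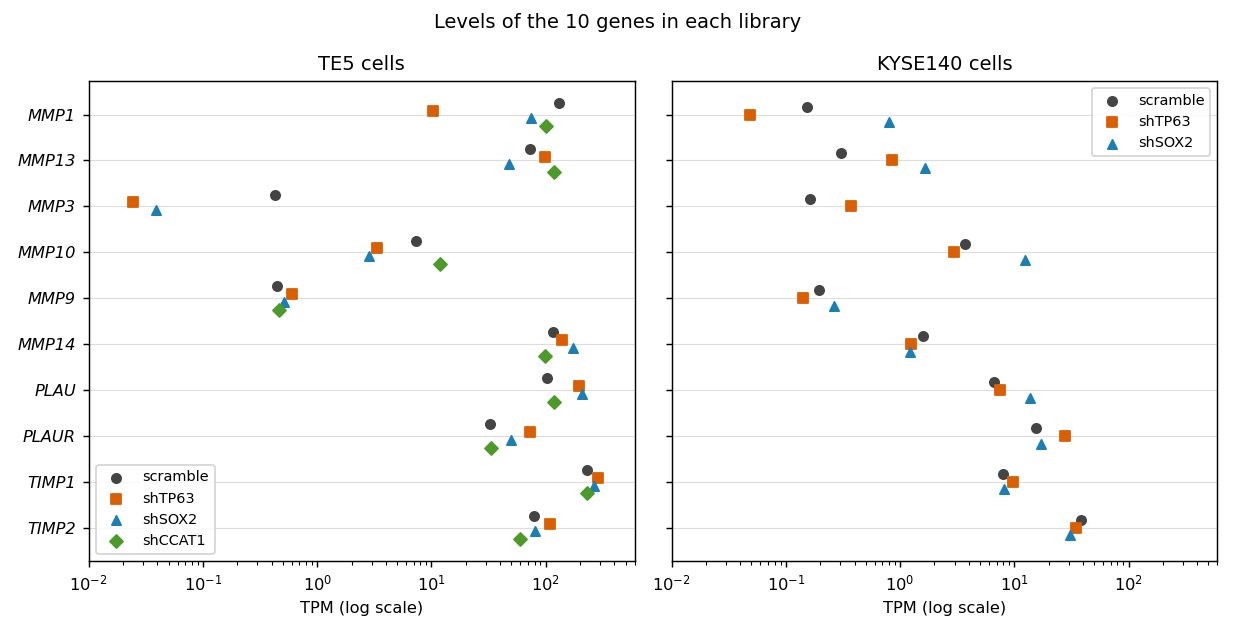
TPM (log axis) of the 10 genes in each library, TE5 at the left and KYSE140 at the right, with 1 point per library and no error bars since each condition had 1 library; MMP3 is not drawn where it had 0 counts. In TE5 scramble MMP1 lay at 129.7 TPM and in KYSE140 scramble at 0.1526 TPM, whereas the scramble libraries differed by a ratio of 2.12 for PLAUR and 2.05 for TIMP2.

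MMP3 (stromelysin-1) had 3.0, 3.0, 4.0 and 0.0 estimated counts in TE5 scramble, shTP63, shSOX2 and shCCAT1. In KYSE140 it had 5.0, 5.0 and 0.0 in scramble, shTP63 and shSOX2. It was at the counting floor in both lines and gave no fold change, so 9 of the 10 members had enough counts to be compared. Of its 31-base words (the unit by which the pseudoaligner places reads), 6.91% also occur in another gene, with 125 of the 128 shared words in MMP10.

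In TE5, the library with TP63 shRNA had 7.2% of the MMP1 level of scramble. Normalized counts of MMP1 were 13345.5 in TE5 scramble, 955.4 in shTP63, 7691.5 in shSOX2 and 9647.6 in shCCAT1. The shTP63 library stood alone at the low end, with a log2 fold change of -3.80 (interval -3.89 to -3.72) that lay at percentile 0.2 of all genes tested. In bulk RNA a lower level may come from fewer expressing cells or from less RNA per cell, which cannot be told apart. Against the knockdown libraries of its own lane the log2 difference was -3.01 (over shSOX2) and -3.33 (over shCCAT1). In KYSE140, where MMP1 was scarce, estimated counts were 13 in scramble, 6 in shTP63 and 86 in shSOX2. The shTP63 library was again the lowest (log2 fold change -1.53, interval -3.38 to -0.20), at a depth that gives a wide interval. With a pseudocount of 10, summed TPM or a minimum of 50 counts it was no longer past -1 or no longer tested.

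MMP13 (collagenase-3) did not move with MMP1 under TP63 silencing. Its normalized counts in TE5 were 9536.6 in scramble, 11510.5 in shTP63, 6210.1 in shSOX2 and 14107.5 in shCCAT1, a range of log2 fold changes from -0.62 to 0.57. None passed a log2 fold change of 1 in either direction. In KYSE140 the counts were 45.0 in scramble, 124.2 in shTP63 and 277.5 in shSOX2, which put both knockdown libraries above scramble (log2 fold changes 1.45, interval 0.91 to 2.06, and 2.60, interval 2.10 to 3.20). In the lane the KYSE140 knockdowns shared, MMP13 was lower in shTP63 than in shSOX2 (-1.15).

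The make-up of collagenase transcripts therefore differed between libraries. MMP1 held 63.8% of the summed TPM of MMP1 and MMP13 in TE5 scramble, 9.5% in shTP63, 60.6% in shSOX2 and 46.0% in shCCAT1. In KYSE140 it held 33.3% in scramble, 5.4% in shTP63 and 32.7% in shSOX2. In both lines the shTP63 library had the lowest MMP1 share. The KYSE140 shares rest on few reads, with 13, 6 and 86 estimated counts of MMP1 in scramble, shTP63 and shSOX2. The sum itself was 203.1 TPM in TE5 scramble, 109.3 in shTP63, 121.8 in shSOX2 and 219.2 in shCCAT1, against 0.458, 0.902 and 2.451 TPM in KYSE140 scramble, shTP63 and shSOX2. KYSE140 libraries thus held under 3 TPM of collagenase transcripts in every condition.

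**Figure D2:**
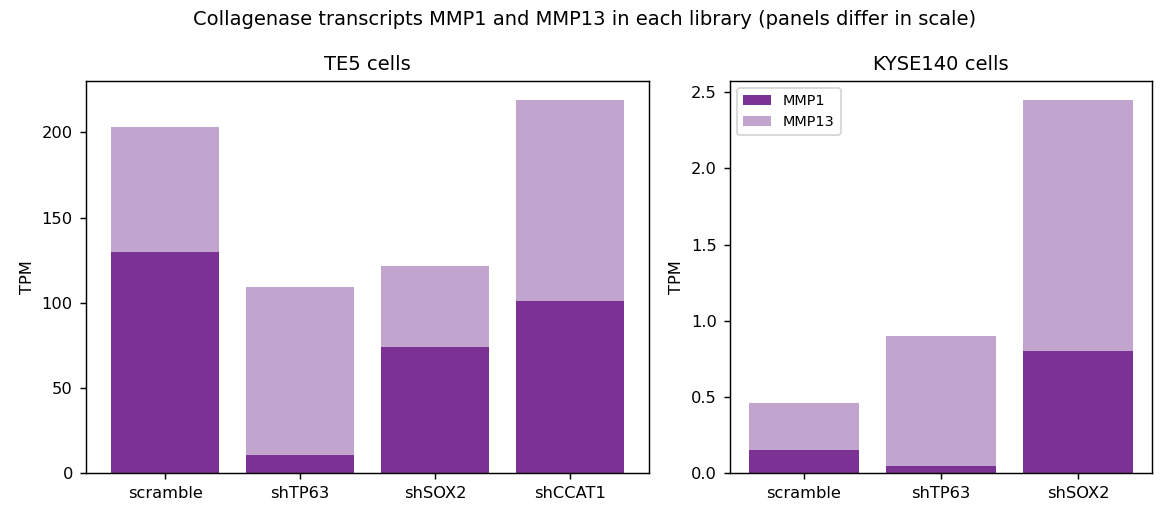
Stacked bars of TPM for MMP1 (dark) and MMP13 (light) in each library, from 0, with different scales for TE5 (left) and KYSE140 (right) and no error bars. MMP1 held 63.8% of the bar in TE5 scramble and 9.5% in TE5 shTP63, and the tallest KYSE140 bar (shSOX2) reached 2.451 TPM.

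MMP10 (stromelysin-2), the neighbor of MMP1, had another order of libraries than MMP1 in TE5 and the same order in KYSE140. In TE5 its normalized counts were 658.7 in scramble, 273.2 in shTP63, 249.5 in shSOX2 and 1003.9 in shCCAT1. The shTP63 and shSOX2 libraries lay below scramble (log2 fold changes -1.27, interval -1.46 to -1.08, and -1.40, interval -1.62 to -1.19), and shCCAT1 lay above it (0.61). In the lane they share with shCCAT1 the differences were larger, -1.87 for shTP63 and -2.0 for shSOX2 over shCCAT1. In KYSE140 the counts were 380.2 in scramble, 296.7 in shTP63 and 1430.3 in shSOX2. SOX2 shRNA thus went with more MMP10 in KYSE140 (1.91, interval 1.72 to 2.11) and with less in TE5. Of the 31-base words of MMP10, 7.11% also occur in MMP3, which had at most 5.0 counts.

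Along chromosome 11 the fixed list of other metalloproteases held further members of the same cluster. MMP12 (macrophage elastase) had 416.3, 195.6, 105.2 and 1075.3 normalized counts in TE5 scramble, shTP63, shSOX2 and shCCAT1, the same order of libraries as MMP10. It had 0.0 to 0.9 in KYSE140. MMP20 (enamelysin) had 157.0 normalized counts in KYSE140 shSOX2 and between 0.0 and 7.1 in the other 6 libraries. MMP7 (matrilysin) had 380.6 in TE5 shCCAT1 beside 167.5 in scramble (log2 fold change 1.18). In KYSE140 shSOX2, MMP20, MMP10, MMP1 and MMP13 were thus above scramble, whereas MMP3, MMP8, MMP12 and MMP27 had between 0.0 and 1.2 normalized counts there.

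**Figure D3:**
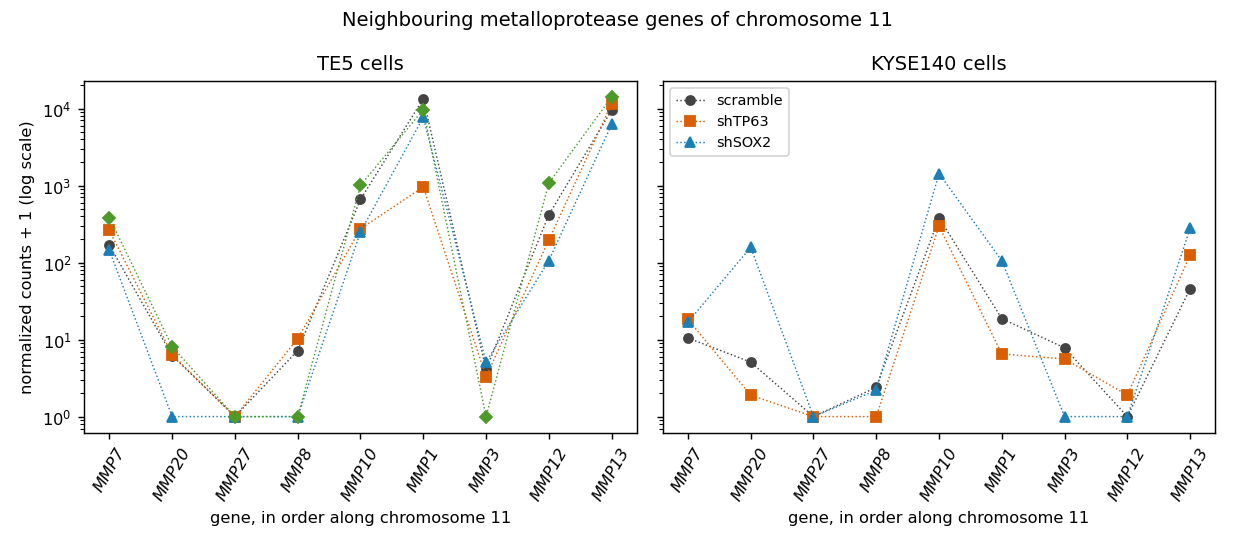
Normalized counts plus 1 (log axis) of 9 metalloprotease genes in their order along chromosome 11, with 1 line of points per library, TE5 at the left and KYSE140 at the right; the dotted lines only join the points of a library. MMP1 in TE5 shTP63 (955.4) lay below the other TE5 libraries (7691.5 to 13345.5), and MMP20 stood out in KYSE140 shSOX2 (157.0).

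MMP9 (gelatinase B) was a low transcript throughout. Its estimated counts were 53, 86, 62 and 68 in TE5 scramble, shTP63, shSOX2 and shCCAT1, and 20.0, 21.1 and 34.0 in KYSE140 scramble, shTP63 and shSOX2. All 5 counting intervals of its log2 fold change over scramble included 0, so no difference from scramble was detectable at this depth. Within the KYSE140 lane, shTP63 lay below shSOX2 (-1.06, interval -1.97 to -0.28). Of its 31-base words, 13.79% also occur in SLC12A5-AS1, an antisense gene with 47.3 to 118.0 estimated counts, and the strand setting of the counting was not stated in the sources used here.

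MMP14 (MT1-MMP) was among the most abundant metalloproteases of TE5. Normalized counts were 20968.3 in scramble, 22970.6 in shTP63, 31925.7 in shSOX2 and 16363.5 in shCCAT1. The highest was shSOX2 (log2 fold change 0.61, interval 0.58 to 0.63) and the lowest shCCAT1 (-0.36, interval -0.39 to -0.33), which share a lane and differed by 0.96. In KYSE140 the counts were 193.5, 241.9 and 210.6 in scramble, shTP63 and shSOX2. Summed TPM there ran the other way (1.589, 1.252 and 1.225), so the direction in KYSE140 depends on the unit. The main coding transcript MMP14-201 held 83.18% of MMP14 TPM in TE5 scramble, but 38.69%, 84.58% and 61.03% in KYSE140 with scramble, TP63 and SOX2 shRNA, where shorter transcripts held most of the rest.

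PLAUR, the urokinase receptor, was higher in both libraries with TP63 shRNA. In TE5 it had 2124.6 normalized counts in scramble, 4487.7 in shTP63, 3394.8 in shSOX2 and 2027.7 in shCCAT1. The fold over scramble was 2.11 in shTP63 (log2 1.08, interval 1.01 to 1.15) and 1.60 in shSOX2 (log2 0.68), and shCCAT1 did not differ beyond counting error (log2 -0.07, interval -0.15 to 0.02). Within the lane, shTP63 over shCCAT1 was 1.15 and shSOX2 over shCCAT1 was 0.74. In KYSE140 PLAUR had 1008.5 normalized counts in scramble, 1843.1 in shTP63 and 1296.5 in shSOX2. The fold was 1.83 in shTP63 (log2 0.87, interval 0.75 to 0.99) and 1.29 in shSOX2 (log2 0.36). In each line shTP63 was the highest library and shSOX2 the next, at 0.40 and 0.51 below it on the log2 scale.

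PLAU, which encodes urokinase, was higher in both libraries with SOX2 shRNA. Its normalized counts in TE5 were 12137.7 in scramble, 21118.4 in shTP63, 25664.8 in shSOX2 and 13432.3 in shCCAT1. The fold over scramble was 2.11 in shSOX2 (log2 1.08, interval 1.05 to 1.11), 1.74 in shTP63 and 1.11 in shCCAT1. In KYSE140 PLAU had 927.3 normalized counts in scramble, 946.4 in shTP63 and 2003.9 in shSOX2. The fold was 2.16 in shSOX2 (log2 1.11, interval 0.98 to 1.24), and shTP63 did not differ beyond counting error (log2 0.03, interval -0.11 to 0.17). Within lanes, shSOX2 was above shTP63 by 0.28 in TE5 and 1.08 in KYSE140, both as log2 differences. Of the 31-base words of PLAU, 24.07% also occur in C10orf55, which had 19.5 to 159.7 estimated counts beside 680.5 to 27205.0 for PLAU. The coding transcript PLAU-201 held 79.16% to 95.75% of PLAU TPM in the 7 libraries.

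The balance of urokinase and receptor transcripts differed between the lines. The ratio of PLAU over PLAUR TPM was 3.13 in TE5 scramble, 2.71 in shTP63, 4.17 in shSOX2 and 3.61 in shCCAT1. In KYSE140 it was 0.436 in scramble, 0.272 in shTP63 and 0.8 in shSOX2. PLAU transcripts thus outnumbered those of PLAUR in all 4 TE5 libraries and in no KYSE140 library, and in each line the ratio was lowest in shTP63 and highest in shSOX2.

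**Figure D4:**
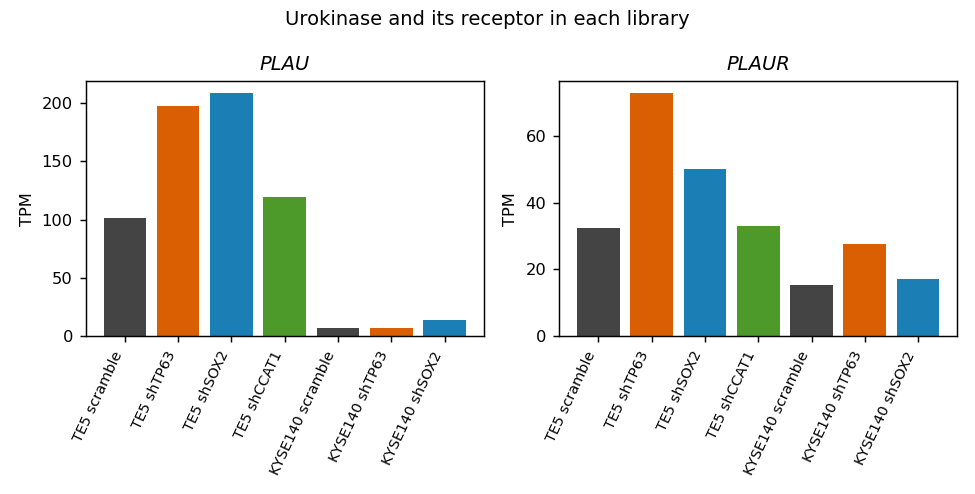
Bars of TPM, from 0, for PLAU and PLAUR in each of the 7 libraries, without error bars since each condition had 1 library. PLAU was highest in TE5 shSOX2 (208.5 TPM) and PLAUR in TE5 shTP63 (72.73 TPM).

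By the range of their log2 fold changes, the inhibitor genes varied least of the 9 members compared. TIMP1 had 9404.5, 10530.0, 10746.0 and 8699.2 normalized counts in TE5 scramble, shTP63, shSOX2 and shCCAT1, and 357.0, 441.8 and 432.1 in KYSE140 scramble, shTP63 and shSOX2. Its log2 fold changes lay between -0.11 and 0.31. TIMP2 had 15130.3, 18633.2, 15440.0 and 10471.9 normalized counts in the TE5 libraries and 8312.4, 7198.1 and 7488.0 in the KYSE140 libraries, listed in the same order. Its lowest log2 fold change was that of TE5 shCCAT1 (-0.53, interval -0.57 to -0.50), and no TIMP1 or TIMP2 value passed 1 in either direction. The 6 metalloproteases over TIMP1 and TIMP2 in summed TPM gave ratios of 1.05, 0.632, 0.87 and 1.13 in TE5 scramble, shTP63, shSOX2 and shCCAT1. The corresponding KYSE140 ratios were 0.131, 0.127 and 0.419. The lowest TE5 ratio was that of shTP63 and the highest KYSE140 ratio that of shSOX2. These are ratios of transcripts and do not measure enzyme activity.

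Read by comparison, between 0 and 4 of the 9 members with enough counts passed a log2 fold change of 1 in a given direction. In TE5 shTP63, 1 was higher (PLAUR, with 14.6% of all 24474 genes tested passing in that direction) and 2 were lower (MMP1 and MMP10, background 5.45%). In TE5 shSOX2, 1 was higher (PLAU, background 6.15%) and 1 lower (MMP10, background 4.80%). In TE5 shCCAT1, 0 were higher (background 11.7%) and 0 lower (background 5.86%). In KYSE140 shTP63, 1 was higher (MMP13, background 8.67%) and 1 lower (MMP1, background 4.17%). In KYSE140 shSOX2, 4 were higher (MMP1, MMP10, MMP13 and PLAU, background 6.80%) and 0 lower (background 6.16%). The median log2 fold change of the 9 was 0.27, 0.19 and -0.07 in TE5 shTP63, shSOX2 and shCCAT1, and 0.03 and 0.58 in KYSE140 shTP63 and shSOX2. The medians over all genes tested lay between -0.01 and 0.06. The TE5 comparisons share the TE5 scramble library, and the KYSE140 comparisons share the KYSE140 scramble library.

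**Figure D5:**
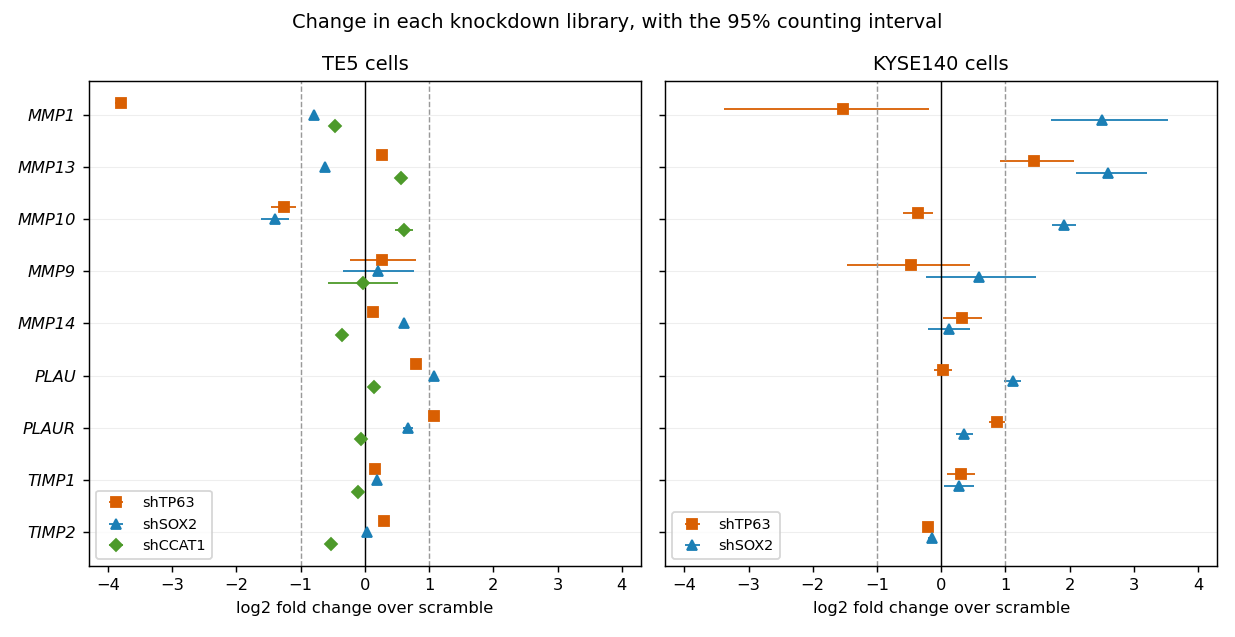
Log2 fold change of normalized counts over the scramble library of the line for 9 genes (MMP3 had too few counts), TE5 at the left and KYSE140 at the right; bars are 95% counting intervals, often narrower than the symbol, and dashed lines mark -1 and 1. MMP1 lay at -3.80 in TE5 shTP63, and under SOX2 shRNA MMP1, MMP10 and MMP13 lay below 0 in TE5 and above 1 in KYSE140.

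SOX2 shRNA went with opposite directions of MMP1, MMP10 and MMP13 in the lines. In TE5 shSOX2 the log2 fold changes were -0.80 for MMP1, -1.40 for MMP10 and -0.62 for MMP13. In KYSE140 shSOX2 they were 2.50, 1.91 and 2.60. These 6 counting intervals excluded 0, but the difference between the lines was not tested, as each line had 1 library per condition. PLAU and PLAUR were above scramble in both lines, as were the secreted metalloproteases MMP2 (0.58 in TE5 and 1.19 in KYSE140), MMP28 (0.34 and 2.20) and MMP9 (0.21 and 0.58, with intervals that include 0).

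To combine the lines, scramble, shTP63 and shSOX2 libraries were compared across both lines with edgeR's quasi-likelihood test, which treats the lines as replicates (6 libraries, adjusted p threshold 0.1). No member passed for either shRNA. The silenced genes did not pass either, with an edgeR adjusted p of 0.122 for TP63 (shTP63) and 0.406 for SOX2 (shSOX2). Over all 26256 features the shTP63 comparison called 0.00% higher and 0.00% lower, with 13.1% of features under an unadjusted p of 0.05. DESeq2, over 43450 features, called 536 higher and 1501 lower. The shSOX2 comparison called 0.00% higher and 0.0533% lower, with 8.58% of features under an unadjusted p of 0.05, and DESeq2 called 238 higher and 488 lower of its 43450. For shTP63, PLAUR had an edgeR log2 fold change of 0.98 (SE 0.16, edgeR adjusted p = 0.156) and was higher in 2 of 2 lines. MMP1 had -3.37 (SE 0.69, edgeR adjusted p = 0.177) and was lower in 2 of 2 lines. For shSOX2, PLAU had 1.08 (SE 0.23, edgeR adjusted p = 0.35) and PLAUR 0.50 (SE 0.16, edgeR adjusted p = 0.505), both higher in 2 of 2 lines. These were the members with an unadjusted edgeR p under 0.05. DESeq2 gave adjusted p-values of 5.34e-05 for PLAUR and 0.0495 for MMP1 with shTP63, and 0.00315 for PLAU with shSOX2. DESeq2 was run on 43450 features, without edgeR's filter on low counts. Without that filter edgeR also called these 3 genes (edgeR adjusted p of 0.034 for PLAUR, 0.0148 for MMP1 and 0.062 for PLAU). The share of all features called in that unfiltered fit is not given here, so these calls have no background beside them. Within edgeR the calls thus changed with the filter alone, and DESeq2 was not run with that filter. The other members had edgeR adjusted p-values of 0.467 or more.

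The remaining genes of the pathway, in fixed lists, were mostly within a log2 fold change of 1. Of all genes tested, 14.6%, 6.15%, 11.7%, 8.67% and 6.80% passed higher in TE5 shTP63, shSOX2 and shCCAT1 and KYSE140 shTP63 and shSOX2. The shares passing lower were 5.45%, 4.80%, 5.86%, 4.17% and 6.16% in the same order. The counts of every list below have these shares as background. Of 17 other metalloproteases, the comparisons tested 11 to 14 and found 0 higher and 1 lower in TE5 shTP63, 1 and 1 in TE5 shSOX2, 2 and 2 in TE5 shCCAT1, 2 and 1 in KYSE140 shTP63, and 5 and 0 in KYSE140 shSOX2. The median log2 fold change of the last was 0.69, beside 0.05 over all genes. MMP2 (gelatinase A), activated by MMP14, had 396.8 normalized counts in KYSE140 shSOX2 and 173.1 in scramble (log2 fold change 1.19). MMP28 (epilysin) had 297.0 against 64.0 there (2.20), and 3056.5 to 5080.1 in TE5. In TE5, the membrane-type MMP16 was higher in shSOX2 (1.20) and MMP17, held to the membrane by a lipid anchor, was lower in shCCAT1 (-1.23).

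Of the plasminogen system, 10 to 11 of 12 listed genes were tested per comparison. The counts were 1 higher and 1 lower in TE5 shTP63, 0 and 1 in TE5 shSOX2, 1 and 2 in TE5 shCCAT1, 0 and 2 in KYSE140 shTP63, and 1 and 0 in KYSE140 shSOX2. The tissue-type activator PLAT had 2244.0 normalized counts in TE5 scramble and 905.7 in shTP63 (-1.31). In KYSE140 shTP63 the protease inhibitors SERPINE2 (-1.98) and SERPINF2 (antiplasmin, -1.61) were lower, and SERPINB2 (PAI-2) was higher in KYSE140 shSOX2 (2.34). The plasminogen receptor genes ANXA2, S100A10 and ENO1 did not pass a log2 fold change of 1 in any comparison.

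Of the other 4 inhibitors, 2 could be tested and 1 was called, in KYSE140 shTP63. TIMP3, which stays bound to the matrix, had 4351.0 normalized counts in KYSE140 scramble and 1377.5 in shTP63 (-1.66), and 16262.4 against 31722.7 in TE5 scramble and shSOX2 (0.96). RECK, a membrane-anchored inhibitor, did not pass 1 in any comparison, and TIMP4 and A2M had too few counts. Of 10 activators and inducers, which include FURIN, a convertase that activates MMP14, and BSG (EMMPRIN), 0 were called in 4 comparisons and 1, HPN, in TE5 shCCAT1, with 14.1 normalized counts. Of 8 ADAM sheddases, 1 was higher in each of TE5 shTP63, KYSE140 shTP63 and KYSE140 shSOX2, and 1 lower in the last. Among them ADAM28 had 1532.5 normalized counts in TE5 shTP63 and 445.5 in scramble (1.78). Of 9 ADAMTS proteases, 2 were higher and 1 lower in TE5 shTP63, 0 and 0 in TE5 shSOX2, 1 and 1 in TE5 shCCAT1, 3 and 0 in KYSE140 shTP63, and 1 and 0 in KYSE140 shSOX2. ADAMTS1, which cleaves proteoglycans, had 216.6 normalized counts in TE5 shTP63 and 883.6 in scramble (-2.02), and ADAMTS15 was higher in KYSE140 shTP63 (1.19).

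Among 12 cathepsins and cystatins, CTSS (1.5) and the cystatin CST6 (1.11) were higher in TE5 shTP63 and 0 were called elsewhere. Among 11 matrix substrates, FN1 (fibronectin, 1.19) and COL3A1 (2.63) were higher and TNC (tenascin-C, -1.72) lower in TE5 shTP63. COL3A1 (2.44) and TNC (1.25) were higher in TE5 shSOX2, and TNC (1.63) was higher in KYSE140 shSOX2. TNC therefore took opposite directions under TP63 and SOX2 shRNA in TE5, with 79.2 and 624.4 normalized counts beside 262.5 in scramble. In the fibroblast list, 3 of 5 markers tested were higher in TE5 shTP63 and 4 of 5 in TE5 shSOX2, COL3A1 among them. COL1A2 had 157.6 normalized counts in TE5 shTP63 and 13.5 in scramble (3.45). The endothelial marker CDH5 had 283.1, 1380.2, 723.7 and 363.2 in TE5 scramble, shTP63, shSOX2 and shCCAT1 (2.28 and 1.35 for the shTP63 and shSOX2 libraries) and at most 1.8 in KYSE140. In TE5 shTP63 and shSOX2, COL3A1, COL1A2 and CDH5 were above scramble, as were PLAU and PLAUR, whereas MMP1 and MMP10 were below it. The part of other cells in the protease values was not tested. Among the squamous markers, the keratin KRT6A was lower in TE5 shTP63 (-2.65), shSOX2 (-2.88) and shCCAT1 (-1.12), and KRT5 was lower in TE5 shTP63 (-1.80) and shCCAT1 (-1.48). In KYSE140, KRT14 was lower in shTP63 (-1.70), and KRT17 (1.15) and the desmosomal cadherin DSG3 (1.23) were higher in shSOX2. The macrophage marker CD68 was lower in KYSE140 shTP63 (-1.68), with 252.1 normalized counts beside 807.7 in scramble. No gene of these lists had an edgeR adjusted p under 0.1 for either shRNA. The smallest was 0.122 for shTP63, that of TP63 itself, the silenced gene.

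The genes with profiles most like those of the members were sought over the 5 log2 fold changes, among 12386 genes with at least 100 normalized counts in every library, by the root mean square difference. The closest matches were those of PLAUR, which were REC8 (0.09), PLK2 (0.14) and CHIC1 (0.14). For PLAU they were HCG4B (0.24), TNRC6A (0.25) and DCBLD1 (0.25). MMP13 lay nearest to ALYREF (0.46), CCDC80 (0.54) and WDFY3 (0.64), and MMP10 to AL603965.1 (0.67), C1orf53 (0.72) and CD24P4 (0.72). Among these candidates the genes closest to MMP1, CLCA2 (1.17), ENSG00000280893 (1.17) and MRPS33 (1.21), differed by over 1 on the log2 scale. MMP1 itself had under 100 normalized counts in KYSE140 scramble (17.7) and KYSE140 shTP63 (5.5), as did MMP13 in KYSE140 scramble (45.0). Genes as scarce as these were not searched, so whether any of them had a closer profile was not tested. The 5 values of a profile share 2 scramble libraries, so likeness is a description.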

How the data were processed

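RNA-Seq of 7 libraries was used (TE5 with 4 conditions and KYSE140 with 3). Paired-end reads of 100 bases were pseudoaligned by the authors to Ensembl transcripts of hg19 (Kallisto), and for every transcript they deposited an estimated count, not scaled between libraries, and a TPM value. The aligner's version was not given in the sources used here. Transcripts were summed to genes with GENCODE release 44 on hg19 (182863 of 196354 transcripts, 93.577% of counts), with 7011 more assigned through flanking transcripts and 11 by hand; the 6470 unassigned (2.695% of counts) entered the edgeR fit one by one but no pairwise value.

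Counts were scaled by TMM (edgeR 4.0.16, R 4.3.3). Each knockdown was compared with the scramble of its line as log2((shRNA + 1)/(scramble + 1)), over genes with at least 10 estimated counts in 1 of the 2 libraries, and called past -1 or 1, with no test. Exact 95% intervals cover counting error only. Rounded counts of 6 libraries were fitted in edgeR (quasi-likelihood, filterByExpr, cell line as a term, 2 residual degrees of freedom, Benjamini-Hochberg adjusted p under 0.1), with DESeq2 1.42.0 as an alternative. On simulated shTP63 data of 26220 genes with a dispersion of 0.02, 91.5% of 200 genes changed by 2 on the log2 scale were recovered. In that simulation 7.6% of calls were false, and 0 calls arose without change. The dispersion of the real data was 0.0641, so the share recovered in the simulation does not give the power of the real fit.

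The members and gene lists were chosen with earlier results of these data known. List genes are named where they passed the threshold with at least 100 normalized counts, at most 5 in each direction (HPN was named after its value was seen). The comparison within lanes was added after seeing the data. Protein sequences were not used here.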

Additional observations from a re-analysis of the deposited data

Results flagged for a closer look

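For 4 genes the 2 lines took opposite directions under the same shRNA with counting intervals that excluded 0 in both, from 1 library on each side, and the difference between the lines was not tested. Under SOX2 shRNA the log2 fold changes over scramble were -0.795 in TE5 and 2.498 in KYSE140 for MMP1, -1.397 and 1.909 for MMP10, and -0.619 and 2.599 for MMP13. SOX2 itself differed from scramble by -1.338 in TE5 and -0.377 in KYSE140. KYSE140 scramble held 13 and 33 estimated counts of MMP1 and MMP13, so those values rest on few reads. Under TP63 shRNA, TIMP2 had 0.3 in TE5 and -0.208 in KYSE140, both within a log2 fold change of 1.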

How the results depend on the processing

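Each of 77 results was recomputed, giving 662 values. Of the log2 fold changes within a line, 233 values stayed within counting error of the one reported, 37 moved further, and none past 1 in either direction changed sign across normalization, pseudocount, unit and transcript choice. Sign changed for 9 smaller values, of MMP9, PLAUR and TIMP1 in TE5 shCCAT1, PLAU in KYSE140 shTP63, and MMP14 in both KYSE140 comparisons, where summed TPM gave -0.321 and -0.349. Within lanes, a comparison added after seeing the data, shTP63 over shSOX2 was 0.131 for MMP10 in TE5 and -1.154 for MMP13 in KYSE140. Scaling by library totals moved the median of all genes by 0.14 in TE5 shTP63 and 0.175 in TE5 shCCAT1. With a threshold of 0.58, TE5 shTP63 had 2 members higher, TE5 shSOX2 3 higher and 3 lower and TE5 shCCAT1 1 higher. KYSE140 shTP63 then had 2 higher and KYSE140 shSOX2 5 higher. The shares of all genes past 0.58 are not given here, so these counts have no background beside them. The lower call in KYSE140 shTP63 (MMP1) became 0 with a pseudocount of 10, with summed TPM and with a minimum of 50 counts, and a minimum of 1 count added 1 lower call (MMP3) in TE5 shCCAT1 and in KYSE140 shSOX2. Counting depth thus limits MMP1 in KYSE140 and MMP3 in both lines.

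In the edgeR fit, using no filter gave 1 member higher and 1 lower for shTP63 and 1 higher for shSOX2. DESeq2, which was run without that filter, gave the same numbers and called 4.69% of all features for shTP63 and 1.67% for shSOX2. Shares over all features with no filter in edgeR, or with 1 library left out, are not given here. The adjusted p ranged from 0.0083 to 1.0 for MMP1 (shTP63), from 5.34e-05 to 1.0 for PLAUR (shTP63) and from 0.00315 to 1.0 for PLAU (shSOX2). Leaving out 1 library at a time gave 0 to 2 members higher and 0 to 1 lower for shTP63, and 0 to 1 higher for shSOX2. Without TE5 scramble, MMP1 in shTP63 was -0.979 with an adjusted p of 1.0. For shTP63 such fits ranged from -0.63 to 0.361 for MMP9, from -1.744 to 0.338 for MMP10, from -0.105 to 2.094 for MMP13 and from -0.181 to 0.251 for TIMP2. For shSOX2 they ranged from -0.69 to 2.317 for MMP1, from -1.189 to 1.634 for MMP10, from -0.424 to 2.115 for MMP13 and from -0.275 to 0.103 for TIMP2. MMP9 in shTP63 was 0.047 with library totals, 0.019 with protein-coding transcripts and 0.078 with no cell line term, and without that term MMP1 and MMP13 in shSOX2 were -0.779 and -0.565. None of these reversed values passed the threshold, and the cause was not tested.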
